A study of Homo sapiens with 24 samples.

Results

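SUM190PT is a human cell line from inflammatory breast cancer, which spreads through the lymphatics of the skin. Its response to 17β-estradiol and CG-1521 given together was measured by setting 3 combination arrays against 3 vehicle arrays, chosen by their sample titles, which is 6 of the 24 arrays of the series. The vehicle group received ethanol and DMSO. The combination group received 10 nM 17β-estradiol and 5 µM CG-1521, which the series title calls a histone deacetylase inhibitor. Treatment lasted 48 h, in medium without serum but with insulin, hydrocortisone and triiodothyronine, and the last 2 of these are ligands of nuclear receptors that every SUM190PT group received. The labels give SUM190PT as ER(-) with a mutated p53 (Q317X) and SUM149PT as ER(-) with p53 M237I, and each group as arrays from independent experiments. The same line treated with 10 nM estradiol alone or 5 µM CG-1521 alone (3 arrays each), and the line SUM149PT with its own vehicle and combination groups (3 arrays each; 10 nM estradiol and 7.5 µM CG-1521 in serum), were used for comparison. Below, an array is named by its group and replicate number, as in vehicle 3.

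Histone deacetylases remove acetyl groups from histones and from other proteins, among them the chaperone HSP90, and their inhibitors raise acetylation and change the transcription of many genes in both directions. Estradiol acts through the estrogen receptors, encoded by ESR1 and ESR2, and through the membrane receptor GPER1. Luminal breast cells are the secretory cells of the gland; they depend on transcription factors such as GATA3 and FOXA1, and cells of the apocrine kind release secretoglobins and mucins.

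One value per gene was available for 18417 genes, as a log2 intensity on which a difference of 1 is 2-fold. Correlations across genes were 0.9883 to 0.9907 between the combination arrays and 0.9807 to 0.991 between the vehicle arrays. Vehicle 3 stood apart: the median of 32 DNA replication genes was 8.85, 8.61 and 7.01 on vehicle 1, 2 and 3. Markers of luminal epithelium were high, all 8 above the median gene in vehicle, with ERBB2 at 12.59 ± 0.15 and KRT8 at 12.48 ± 0.09 (SD, n = 3), against a median gene at 6.1. Of 12 fibroblast markers 2 were above the median gene, of 12 leukocyte markers 2 and of 10 endothelial markers 1. The pan-leukocyte marker PTPRC (2.83 ± 0.058) and the fibroblast product DCN (2.94 ± 0.098) lay near the bottom of the scale. ESR1, at 4.70 ± 0.15, was near the lower quartile of all genes (4.57).

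The combination changed 2466 genes at an adjusted p under 0.05, which is 13.4% of those tested. Of these 1220 rose (6.62%) and 1246 fell (6.76%), and 304 rises (1.65%) and 336 falls (1.82%) were at least 2-fold. Counts of list members below are to be read beside the 6.62% and 6.76% of all genes. The largest rises were BPIFC, HSPA6, CRYAB and HSPB8, the last 3 of them chaperones, and the largest falls CYP4Z1, SCGB1D2, LRRC31 and FGG. The count was 1252 to 2248 with 1 of the 6 arrays left out, at its lowest without combination 1, and 1611 without vehicle 2. Without vehicle 3 it was 2248, of which 1851 were among the 2466.

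**Figure D1:**
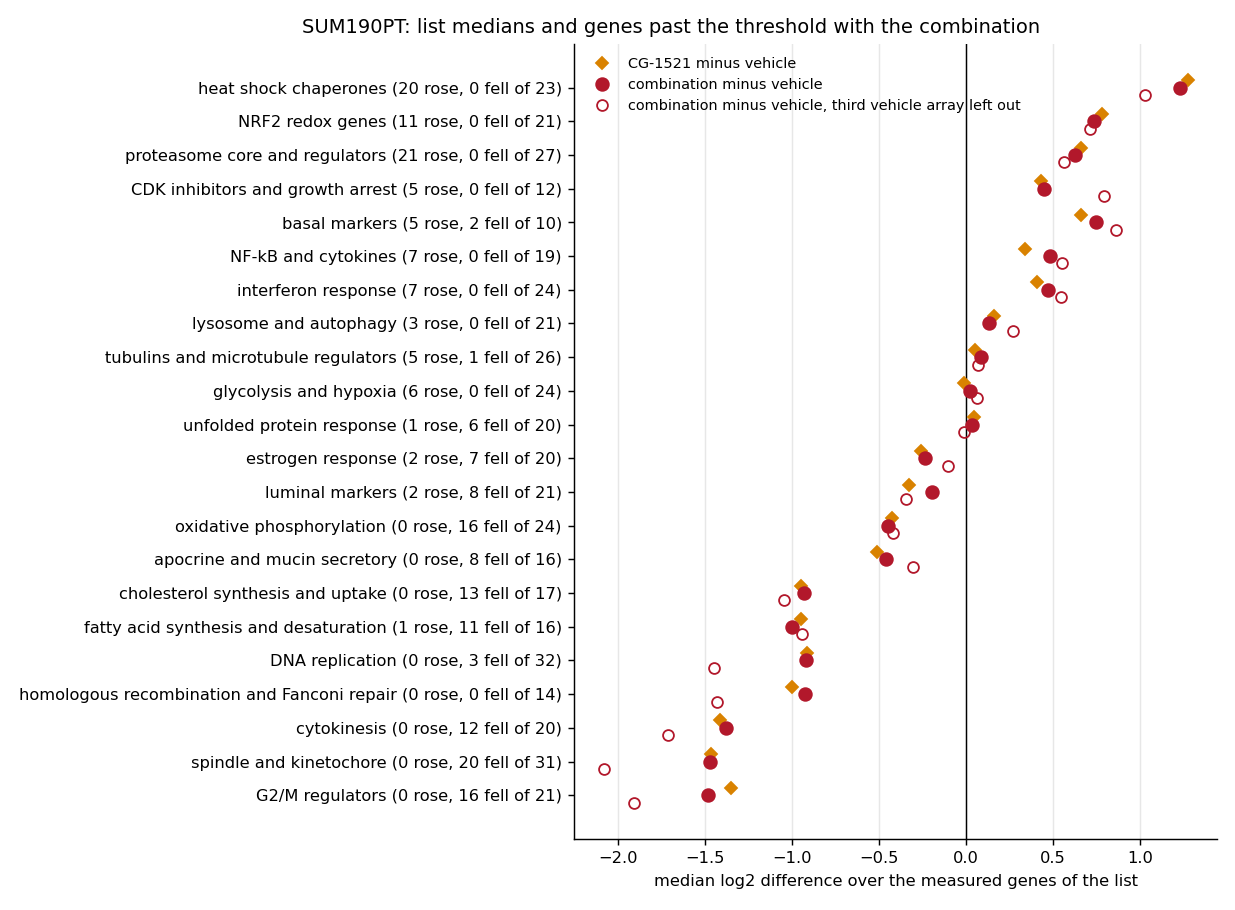
Median log2 difference over the measured genes of 22 gene lists in SUM190PT, for the combination minus vehicle (filled circles), the same with vehicle 3 left out (open circles) and CG-1521 minus vehicle (diamonds). The heat shock list lies farthest to the right, at a median of 1.23, and the G2/M, spindle and cytokinesis lists lie farthest to the left, farther still without vehicle 3.

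Heat shock chaperones, which refold or hold damaged proteins, had the highest median of the 42 gene lists examined. Of 23 measured members 20 rose and 0 fell, with a median of 1.23, beside −0.0087 over all genes tested. HSPA6, an HSP70 gene that is nearly silent in unstressed cells and has a near copy, HSPA7, whose RNA its probes may share, read 5.43, 5.28 and 5.71 on vehicle 1 to 3 and 10.46, 9.54 and 10.97 on combination 1 to 3, a rise of 4.85 (SE 0.56, adjusted p = 0.000186), or 28.8-fold. CRYAB, the small heat shock protein αB-crystallin, went from 4.11, 4.31 and 4.16 to 9.17, 7.77 and 9.54, a rise of 4.63 (SE 0.48, adjusted p = 0.0001). HSPB8, the small chaperone that works with BAG3, stood at 4.71, 5.20 and 5.11 in vehicle and 10.00, 9.01 and 9.02 with the combination (4.34, SE 0.37, adjusted p = 3.81e-05). The groups did not overlap in these genes, which was a condition for naming them by size. In all of them combination 2 was the lowest of the treated arrays. BAG3 itself, a co-chaperone that routes proteins to autophagy, rose from 8.18, 8.02 and 8.15 to 11.04, 10.28 and 11.04 (2.67, SE 0.31). ZFAND2A, an arsenite-inducible partner of the proteasome, rose from 7.67, 7.38 and 8.16 to 11.89, 10.99 and 12 (3.89, SE 0.32). The rise extended to the abundant cytosolic machinery: the HSP90 genes HSP90AA1 and HSP90AB1 rose by 0.81 and 1.23, the HSP40 gene DNAJB1 by 2.25 and HSPH1 (HSP110) by 2.66. HSF1, the factor that switches on this response, rose by 0.54 (SE 0.14, adjusted p = 0.0201). The members that did not pass were DNAJB6 (0.58), HSPA1L (0.52) and HSPE1 (0.28). The list's count was 15 to 20 with 1 array left out. HSF1 no longer passed without combination 1, combination 3, vehicle 1 or vehicle 2.

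The heat shock factor binds repeats of the letters GAA in alternating orientation. The pattern of GAA, TTC and GAA with any 2 bases between neighbours (either strand) occurred in the 250 bases before the RefSeq start (GRCh38.p14) of 4 of 21 heat shock genes with a sequence, against 52 of all 14239 genes (0.365%). Its 4 carriers on the list are shown because 3 of them, HSPA6, HSPA8 and CHORDC1, rose, and DNAJB6 gave 0.58 (adjusted p = 0.072). HSPA8, the constitutive HSP70, rose by 0.56 (SE 0.14) and the HSP90 partner CHORDC1 by 1.78 (SE 0.28). Capitals mark the pattern on either strand, and overlapping matches run together. The windows are chr1:161524290-161524539 (+ strand) for HSPA6, chr11:123062137-123062386 (- strand) for HSPA8, chr7:157336754-157337003 (+ strand) for DNAJB6 and chr11:90223050-90223299 (- strand) for CHORDC1.
HSPA6: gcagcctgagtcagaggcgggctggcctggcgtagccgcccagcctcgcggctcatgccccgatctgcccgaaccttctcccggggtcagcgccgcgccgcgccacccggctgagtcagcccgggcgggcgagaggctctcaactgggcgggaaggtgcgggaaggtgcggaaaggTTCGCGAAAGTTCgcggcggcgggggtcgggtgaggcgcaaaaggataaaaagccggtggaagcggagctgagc
HSPA8: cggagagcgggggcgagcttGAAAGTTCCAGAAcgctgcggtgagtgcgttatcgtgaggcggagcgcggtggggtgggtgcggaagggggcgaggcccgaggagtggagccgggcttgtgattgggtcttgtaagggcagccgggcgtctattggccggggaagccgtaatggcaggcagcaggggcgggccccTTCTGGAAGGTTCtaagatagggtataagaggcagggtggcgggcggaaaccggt
DNAJB6: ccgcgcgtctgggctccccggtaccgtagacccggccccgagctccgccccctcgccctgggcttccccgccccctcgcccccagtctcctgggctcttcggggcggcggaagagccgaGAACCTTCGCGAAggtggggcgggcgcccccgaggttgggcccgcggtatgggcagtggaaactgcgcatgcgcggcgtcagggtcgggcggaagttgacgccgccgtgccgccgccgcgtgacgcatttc
CHORDC1: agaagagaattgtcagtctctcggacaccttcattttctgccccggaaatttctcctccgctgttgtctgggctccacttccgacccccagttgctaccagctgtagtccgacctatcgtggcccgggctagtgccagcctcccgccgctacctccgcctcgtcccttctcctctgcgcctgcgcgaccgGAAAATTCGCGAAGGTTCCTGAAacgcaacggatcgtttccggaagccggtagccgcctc
A match is a description of letters and does not show that the factor binds. In HSPA6 the match began 74 bases before the start, and CHORDC1 held 3 matches that overlap, the nearest to the start beginning 50 bases before it. Of all 52 genes with the pattern 7 rose (13.5%) and 3 fell, against 967 rises (6.79%) among the 14239 genes with a sequence. The 52 include the 4 genes shown, and the 7 rises include HSPA6, HSPA8 and CHORDC1, so this share is not independent of them.

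Genes of the proteasome, the protease that degrades ubiquitin-tagged proteins, rose together but by less. Of 27 members 21 rose and 0 fell, with a median of 0.63. PSMD14, the lid subunit that removes ubiquitin from substrates, read 9.56, 9.32 and 9.29 in vehicle and 10.87, 10.53 and 10.24 with the combination, a rise of 1.16 (SE 0.16, adjusted p = 0.000544). The base ATPases PSMC4, PSMC1 and PSMC6 rose by 1, 0.95 and 0.91, and the core subunit PSMA5 by 0.90 (SE 0.20, 0.17, 0.14 and 0.16). The count of rises was 11 without combination 1; 12 without combination 2; 13 without vehicle 2. SQSTM1, which carries ubiquitin-tagged cargo to autophagosomes, rose from 10.62, 10.48 and 10.20 to 12.52, 12.34 and 12.02 (1.86, SE 0.16), and the autophagosome protein GABARAPL1 from 6.81, 6.21 and 7.15 to 9.26, 8.20 and 8.36 (1.88, SE 0.32). With the cholesterol exporter NPC1 (0.59) these were the 3 rises among 21 lysosome and autophagy genes, of which 0 fell. Those rises numbered 3 to 3 with any 1 of the 6 arrays left out.

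Target genes of NRF2, the factor of the oxidative stress response, rose in 11 of 21 (median 0.73, 0 fell). AKR1B10, an aldo-keto reductase of retinoid and lipid aldehydes, read 3.72, 3.65 and 3.70 in vehicle and 7.39, 7.92 and 6.11 with the combination, a rise of 3.44 (SE 0.40, adjusted p = 0.000197). HMOX1, which breaks down haem, rose from 7.6, 7.27 and 7.19 to 11.05, 10.68 and 9.78 (3.15, SE 0.31, adjusted p = 7.22e-05). SRXN1, which repairs peroxiredoxins, reached 10.99, 10.87 and 9.40 from 8.03, 7.81 and 7.67 (2.59, SE 0.39). In these genes combination 3 was the lowest treated array, the reverse of its place among the interferon genes below. The conjugate exporter ABCC2 rose by 2.27 and OSGIN1 by 1.86 (SE 0.40 and 0.21). NQO1, a classical NRF2 target, gave 0.23 (adjusted p = 0.651), and AKR1C1, AKR1C2 and AKR1C3 gave 0.37, 0.45 and 0.34 without passing. The AKR1C genes are close copies of each other, so their probe sets may share signal. The letters TGACNNNGC of the antioxidant response element (either strand) occurred before the start of 4 of 17 NRF2 genes with a sequence, against 11.8% of all genes. They also occurred in 4 of 21 heat shock genes and 5 of 27 spindle genes, and in 0 of 16 cholesterol genes. With 1 array left out 8 to 12 members rose.

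Folding genes of the endoplasmic reticulum did not follow the cytosolic chaperones. Of 20 genes of the unfolded protein response 6 fell and 1 rose (median 0.033, with either sign when 1 array was left out). Calreticulin (CALR) read 11.01, 11.01 and 10.84 in vehicle and 9.93, 9.95 and 10.26 with the combination, a fall of 0.91 on the log2 scale (SE 0.12, adjusted p = 0.000584). The cochaperone SDF2L1, the isomerase PDIA4 and the transcription factor XBP1 stood at −0.70, −0.68 and −0.62. The member that rose was HSPA5 (BiP), from 11.60, 11.74 and 11.88 to 12.86, 12.48 and 12.42 (0.85, SE 0.16). The count of falls was 4 to 6 with any 1 of the 6 arrays left out, and that of rises 3 without combination 3 and 2 without vehicle 3. Among 22 genes of the amino acid response driven by ATF4, 2 rose and 1 fell, near the 6.62% and 6.76% of all genes: ATF3, a stress transcription factor, by 2.60 (SE 0.52), the tryptophan tRNA ligase WARS1 by 0.57 (SE 0.17), and PHGDH, the first enzyme of serine synthesis, by −1.03 (SE 0.18). The number of rises was 1 without combination 1, combination 2, vehicle 1 or vehicle 2 and 5 without vehicle 3. With 1 array left out, calls ended for SDF2L1 without combination 3 or vehicle 2, XBP1 without combination 1, and WARS1 without combination 1, combination 2, vehicle 1 or vehicle 2.

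**Figure D2:**
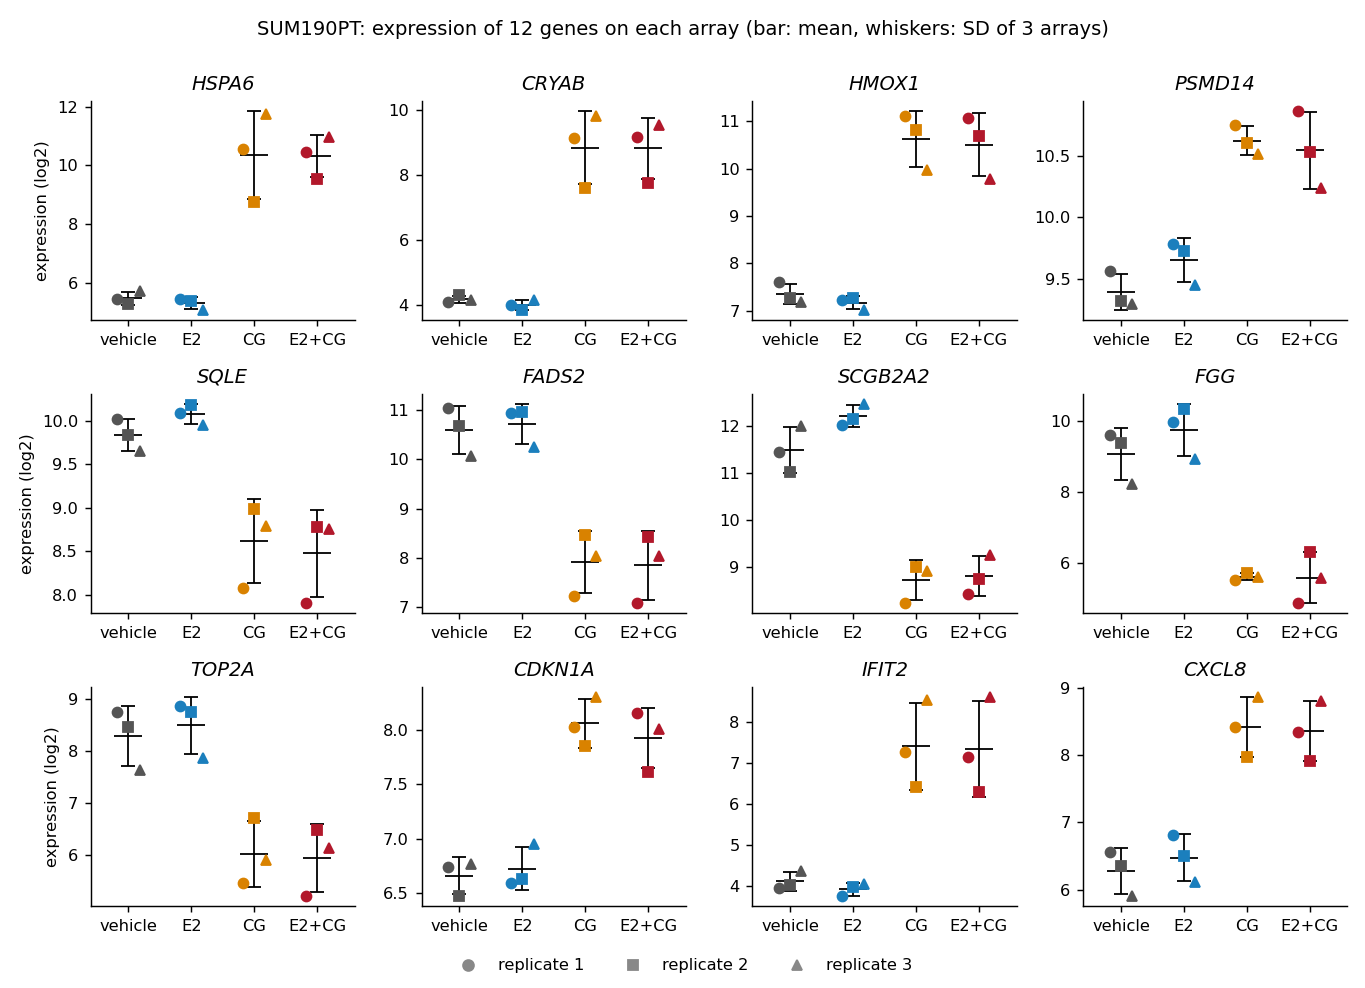
Expression (log2) of 12 genes on each SUM190PT array, by group (E2, estradiol; CG, CG-1521; E2+CG, combination), with symbols for the replicate number, bars for the mean and whiskers for the SD of 3 arrays. The estradiol arrays sit near vehicle and the combination arrays near CG-1521; for HSPA6 the combination spans 9.54 to 10.97 and vehicle 5.28 to 5.71.

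Enzymes of cholesterol and fatty acid synthesis fell. Both pathways are switched on by the SREBP factors, encoded by SREBF1 and SREBF2. Of 17 cholesterol genes 13 fell and 0 rose, with a median of −0.93. SQLE, which makes the epoxide that is cyclised to the first sterol, read 10.02, 9.83 and 9.65 in vehicle and 7.90, 8.77 and 8.75 with the combination, a fall of 1.36 on the log2 scale (SE 0.25, adjusted p = 0.00342). DHCR7, the last enzyme of the pathway, went from 11.29, 11.05 and 11.26 to 9.71, 10.33 and 9.96 (−1.20, SE 0.17). The groups did not overlap in either gene, as in 14.4% of all genes with the combination below vehicle, and combination 1 was the lowest array. The isomerase EBP, the cyclase LSS and the farnesyl diphosphate synthase FDPS gave −1.32, −1.16 and −1.15 (SE 0.25, 0.25 and 0.20). HMGCS1, an early enzyme of the pathway, gave −0.77 and did not pass (adjusted p = 0.072). SREBF2 itself went from 9.15, 9.23 and 9.68 to 8.12, 8.70 and 8.49, a difference of −0.92 (SE 0.23, adjusted p = 0.0185). The letters CCAAT (either strand) occurred before the start of 13 of 16 cholesterol genes with a sequence, against 34.4% of all genes. They were also frequent in the division lists below, at 15 of 17 cytokinesis, 12 of 16 G2/M and 16 of 27 spindle genes. In heat shock genes they occurred in 6 of 21. TCACNCCAC, a form of the sterol regulatory element, occurred in 1 of 16 cholesterol genes against 0.871%. The count of falls was 8 without combination 1. Calls were lost for LSS without combination 1 and SREBF2 without combination 1 or vehicle 3.

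Among 16 genes of fatty acid synthesis and desaturation 11 fell and 1 rose (median −1; 10 to 12 falls with 1 array left out). THRSP, a lipogenic protein induced by thyroid hormone, read 8.17, 7.51 and 7.57 in vehicle and 4.50, 4.83 and 4.53 with the combination, a fall of 3.13 on the log2 scale (SE 0.19, adjusted p = 3.9e-06), or 8.75-fold. FADS2, the desaturase at the start of polyunsaturated fatty acid synthesis, went from 11.05, 10.67 and 10.07 to 7.07, 8.43 and 8.04 (−2.75, SE 0.38, adjusted p = 0.000574). SCD, which makes monounsaturated fatty acids, went from 11.98, 11.71 and 11.68 to 9.73, 11.11 and 10.74 (−1.26, SE 0.29). The fatty acid synthase FASN gave −1.19 and its rate-limiting carboxylase ACACA −1.13. The elongase ELOVL6 gave −1.45 (SE 0.44) and SREBF1 −1.11 (SE 0.20). FADS3, a desaturase of the same gene cluster as FADS2, was the member that rose, from 6.92, 6.87 and 6.93 to 8.49, 8.25 and 7.73 (1.25, SE 0.17). ELOVL6 no longer passed without combination 1, combination 2, combination 3, vehicle 1 or vehicle 2.

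Genes of cell division fell, and their size depended on vehicle 3. Of 31 spindle and kinetochore genes 20 fell (median −1.47), of 20 cytokinesis genes 12 (median −1.38) and of 21 G2/M regulators 16 (median −1.48), and 0 members of these lists rose. TOP2A, the topoisomerase that untangles chromosomes before division, read 8.76, 8.46 and 7.65 in vehicle and 5.20, 6.49 and 6.13 with the combination, a fall of 2.35 on the log2 scale (SE 0.40, adjusted p = 0.00236). KIF20A, a kinesin of the dividing cell's midzone, went from 9.24, 8.99 and 7.57 to 5.36, 6.51 and 6.08 (−2.61, SE 0.48, adjusted p = 0.00349). PLK1, a mitotic kinase, went from 9.85, 9.64 and 8.51 to 6.62, 7.53 and 7.27 (−2.19, SE 0.39). In each of them vehicle 3 was the lowest vehicle array and combination 1 the lowest of all. The groups did not overlap, with the combination below, which was a condition for naming KIF20A by size. The same held for 14.4% of all genes. The kinetochore protein CENPF, the spindle pole protein ASPM and the chromokinesin KIF4A gave −2.37, −2.31 and −2.28. The mitotic kinase CDK1, its partner CCNB2 and the proliferation antigen MKI67 gave −2.16, −2.08 and −2.21. BIRC5 (survivin), which serves both division and survival, gave −1.37 (SE 0.34).

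In bulk RNA, fewer dividing cells and less of each transcript per dividing cell cannot be told apart. Relative to the mean of vehicle 1 and 2, vehicle 3 was lower in 31 of 31 spindle genes (median −1.36), 18 of 20 cytokinesis genes (−1.05), 20 of 21 G2/M genes (−0.99) and 32 of 32 replication genes (−1.61). Without vehicle 3 the combination lowered 30 spindle genes (median −2.08), 15 cytokinesis genes (−1.71) and 19 G2/M genes (−1.91). The spindle count was 5 without combination 1; 11 without combination 3; 6 without vehicle 1; 7 without vehicle 2. That of cytokinesis was 7 without combination 1, and that of G2/M 7 without combination 1, vehicle 1 or vehicle 2. The kinetochore protein NUF2 gave −2.19. Leaving out 1 array ended the calls of NUF2 without combination 1 and CDK1, MKI67 and BIRC5 without combination 1, vehicle 1 or vehicle 2.

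DNA replication genes had a negative median too, but few passed. Of 32, 3 fell, near the 6.76% of all genes, and 0 rose (median −0.92, and −1.45 without vehicle 3). RFC3, a clamp loader subunit, read 10.52, 10.04 and 9.13 in vehicle and 7.64, 8.57 and 8.01 with the combination (−1.82, SE 0.41, adjusted p = 0.0107), and LIG1 and POLD1 gave −0.86 and −0.80. The list's median level on vehicle 3 (7.01) lay within the range of the combination arrays (6.84, 7.41 and 6.91). The count of falls was 0 without combination 1; 1 without combination 2, vehicle 1 or vehicle 2; 20 without vehicle 3. Short of the threshold with 1 array fewer were RFC3 without combination 1, LIG1 without combination 1, combination 2, combination 3, vehicle 1 or vehicle 2, and POLD1 without combination 1, combination 2, vehicle 1 or vehicle 2. Of 14 homologous recombination and Fanconi genes none passed (median −0.93, and −0.59 without vehicle 1 and −1.43 without vehicle 3), against 9 falls without vehicle 3; RAD51AP1 gave −1.79 (adjusted p = 0.0595).

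**Figure D3:**
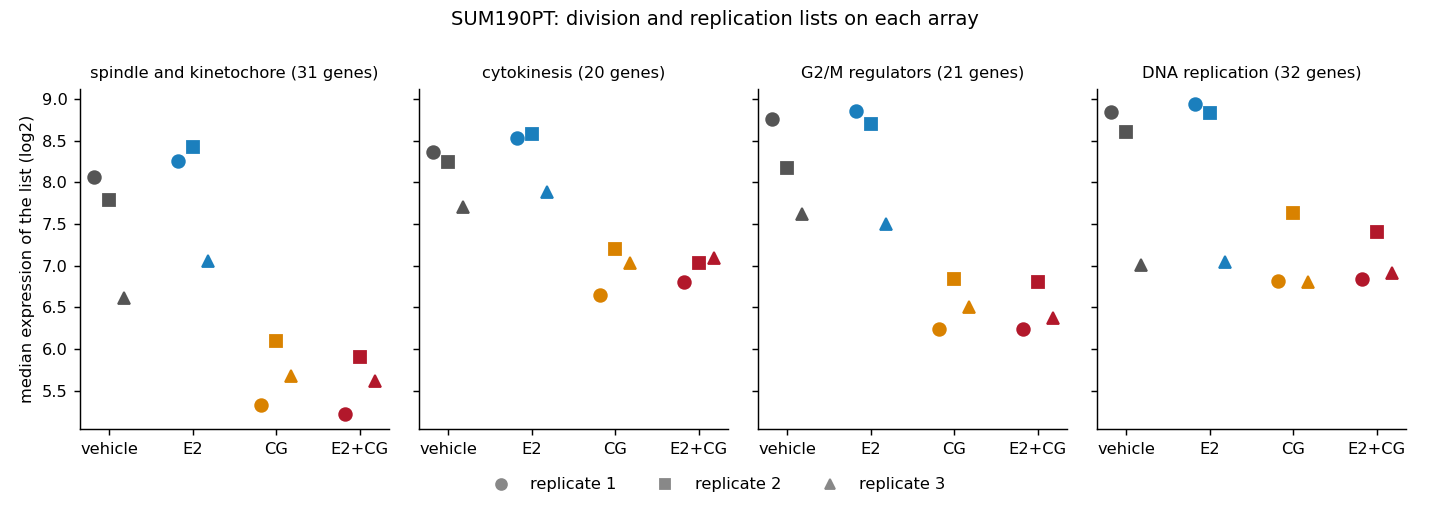
Median expression (log2) of the genes of 4 division and replication lists on each SUM190PT array, by group and replicate number. Vehicle 3 and estradiol 3 (triangles) lie below the other arrays of their groups, in DNA replication as low as the CG-1521 and combination arrays.

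Promoters of many division genes carry the CHR, whose letters are TTTGAA. It occurred (either strand) in the 250 bases before the start of 9 of 17 cytokinesis genes, 8 of 16 G2/M genes and 8 of 27 spindle genes with a sequence, against 10.6% of all 14239. PLK1, at chr16:23678639-23678888 (+ strand), and CCNB2, at chr15:59104896-59105145 (+ strand), are shown because both fell and both carry it 29 bases before the start; capitals mark it. TTTGAA and the heat shock pattern do not contain each other.
PLK1: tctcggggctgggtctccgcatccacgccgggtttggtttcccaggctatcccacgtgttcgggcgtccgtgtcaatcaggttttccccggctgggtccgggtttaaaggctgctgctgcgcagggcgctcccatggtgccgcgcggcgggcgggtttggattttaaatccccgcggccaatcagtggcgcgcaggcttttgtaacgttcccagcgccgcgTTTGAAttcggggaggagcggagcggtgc
CCNB2: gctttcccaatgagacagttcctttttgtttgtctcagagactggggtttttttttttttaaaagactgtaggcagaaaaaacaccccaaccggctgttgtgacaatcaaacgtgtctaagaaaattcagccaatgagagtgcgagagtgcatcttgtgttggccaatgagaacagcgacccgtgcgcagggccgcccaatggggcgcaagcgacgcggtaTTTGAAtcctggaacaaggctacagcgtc
Of the 1506 genes with these letters 129 fell (8.57%) and 74 rose (4.91%), against 7.25% and 6.79% of all genes with a sequence.

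Inhibitors of the cell cycle rose in part. Of 12 CDK inhibitor and growth arrest genes 5 rose and 0 fell (4 to 5 rises with 1 array left out). The median was 0.45, and 0.26 without vehicle 2 and 0.79 without vehicle 3. CDKN1A (p21), which blocks the cyclin-dependent kinases, read 6.74, 6.47 and 6.77 in vehicle and 8.15, 7.62 and 8.01 with the combination, a rise of 1.26 (SE 0.17, adjusted p = 0.000426). SFN (14-3-3σ), a checkpoint protein, went from 9.18, 9.11 and 8.48 to 11.59, 11.48 and 10.71 (2.34, SE 0.29) and GADD45A, a growth arrest protein, from 7.90, 7.80 and 7.92 to 9.82, 9.29 and 9.49 (1.66, SE 0.17). All 3 are known targets of p53, which is mutated in this line. Their groups did not overlap, as in 14.3% of all genes with the combination above vehicle. CDKN2B (p15) rose by 1 and KLF6 by 0.97. MYC rose by 0.84 (SE 0.13) while the cyclins CCND1 and CCND3 gave −0.55 and −0.52. They were the 1 rise and 2 falls among 16 G1 cyclin and E2F genes. These falls numbered 1 without combination 1, combination 3, vehicle 1 or vehicle 2 and 7 without vehicle 3. The test was no longer passed by KLF6 without combination 3, vehicle 1 or vehicle 2 and CCND3 without combination 1, combination 3, vehicle 1 or vehicle 2.

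Secreted products of luminal and apocrine cells were among the large falls. Of 16 such genes 8 fell and 0 rose (median −0.46, and −0.73 without combination 3 and −0.30 without vehicle 3), the falls numbering 5 without combination 1. SCGB1D2 (lipophilin B), a secretoglobin, read 9.86, 9.57 and 11 in vehicle and 5.48, 5.82 and 7.64 with the combination, a fall of 3.83 on the log2 scale (SE 0.54, adjusted p = 0.000651), or 14.2-fold. Its partner SCGB2A2 (mammaglobin A) went from 11.44, 11.01 and 11.99 to 8.44, 8.76 and 9.27 (−2.66, SE 0.27, adjusted p = 9.18e-05). SCGB2A1 (mammaglobin B) went from 10.04, 9.81 and 10.98 to 7.01, 7.51 and 8.75 (−2.52, SE 0.46). All 3 were highest on vehicle 3 and, among treated arrays, on combination 3. PIP, a prolactin-inducible protein of apocrine glands, gave −1.71 (SE 0.43), and the membrane mucin MUC1 −1 (SE 0.27). The largest fall of all was CYP4Z1, a breast-expressed fatty acid hydroxylase, from 8.48, 8.10 and 9.90 to 4.43, 4.24 and 5.70 (−4.04, SE 0.46, 16.4-fold). Other large falls were LRRC31 (−3.60), the mucin MUC19 (−3.32), ELAPOR1 (−3.20) and the chloride channel regulator CLCA2 (−2.76).

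Fibrinogen, the clot protein usually made in liver, is encoded by chains FGA, FGB and FGG. Of these FGB and FGG were named by size, and no value is given here for FGA. FGG read 9.61, 9.39 and 8.24 in vehicle and 4.87, 6.30 and 5.56 with the combination (−3.50, SE 0.42, adjusted p = 0.000241), and FGB 7.46, 8.70 and 6.68 and 3.87, 4.34 and 4.60 (−3.34, SE 0.49, adjusted p = 0.000855). In both genes vehicle 3 was the lowest vehicle array. It lay above every combination array, as the rule for naming genes by size required. Further falls named by size were TMT1A (−2.63), a methyltransferase, and GASK1B (−2.58). Below the threshold with 1 array fewer were PIP without combination 1, combination 2, vehicle 1 or vehicle 2 and MUC1 without combination 1, vehicle 1 or vehicle 3.

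Transcription factors of luminal identity fell with those products. Of 21 luminal markers 8 fell and 2 rose (median −0.20, and −0.38 without vehicle 2 and −0.34 without vehicle 3). TFAP2B, an AP-2 factor of luminal cells, read 8.96, 8.78 and 8.96 in vehicle and 6.43, 6.77 and 6.95 with the combination (−2.18, SE 0.16, adjusted p = 1.48e-05). SPDEF, an ETS factor of secretory differentiation, went from 9.5, 9.43 and 9.87 to 7.23, 8.20 and 7.64 (−1.91, SE 0.22). GATA3 went from 9.41, 9.07 and 9.17 to 7.42, 7.67 and 8.22 (−1.44, SE 0.18). FOXA1, which opens chromatin for the estrogen receptor, gave −0.98 (SE 0.12). Structural luminal genes stayed high: KRT19 gave −0.51 (adjusted p = 0.0745), KRT8 −0.43, KRT18 −0.12 and EPCAM 0.29, and KRT8, although past the threshold, was at 12.04 ± 0.15 (SD, n = 3). The rises were the ETS factor ELF3 (0.67) and the claudin CLDN4 (0.87). Falls numbered 4 without combination 1, and rises 1 without combination 1, combination 2, combination 3, vehicle 2 or vehicle 3.

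Of 10 basal markers 5 rose and 2 fell (median 0.74; 4 to 5 rises with 1 array left out). Falls numbered 1 without combination 1, combination 2 or vehicle 1. ANXA1, a membrane-binding annexin, went from 10.43, 10.48 and 10.87 to 12.70, 12.50 and 12.67 (2.03, SE 0.17, adjusted p = 3.81e-05). The keratin KRT16 gave 1.46, the laminin chain LAMB3 1.43 and KRT15 −1.08, so the list did not move one way. The growth factor receptor EGFR rose from 5.43, 5.72 and 5.79 to 6.49, 6.67 and 6.99 (1.07, SE 0.16, adjusted p = 0.000941). Its relatives went the other way: ERBB4 gave −1.19, ERBB3 −0.84 and ERBB2, read at 12.69, 12.41 and 12.67 and 11.89, 12.20 and 12.28, −0.47 (SE 0.14, adjusted p = 0.0382). Of the 12 genes of the ERBB family and of the 17q12 region around ERBB2 these were the 1 rise and 3 falls. Falls there numbered 0 without combination 1 or vehicle 3 and 1 without combination 2. The ERBB2 neighbour GRB7 gave 0.22 (adjusted p = 0.583). With 1 array left out, calls ended for ERBB2 without combination 1, combination 2, vehicle 1 or vehicle 3, ERBB3 without combination 1, combination 2 or vehicle 3, and ERBB4 without combination 1 or vehicle 3. The EGFR ligand gene EPGN (epigen) rose from 8.30, 7.90 and 7.39 to 11.21, 11.42 and 10.63 (3.22, SE 0.28).

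Estrogen receptors and the classical estrogen targets showed no change that passed. ESR1 read 4.54, 4.84 and 4.72 in vehicle and 4.75, 4.44 and 4.58 with the combination (−0.11, SE 0.14, adjusted p = 0.696), with overlapping groups. ESR2 gave −0.021 and GPER1 −0.082. The targets PGR, TFF1 and GREB1 gave 0.046, 0.036 and 0.26 (adjusted p = 0.883, 0.939 and 0.0898). Of 20 genes of an estrogen response list 7 fell and 2 rose (median −0.24, and −0.44 without vehicle 1 and −0.10 without vehicle 3). The prolactin receptor PRLR went from 6.31, 5.62 and 5.76 to 3.87, 3.75 and 4.26 (−1.94, SE 0.20, adjusted p = 8.67e-05), the transcription factor MYB gave −1.63, the carbonic anhydrase CA12 −1.51, BCAS1 −0.94 and the cadherin CELSR2 −0.80. The rises were FKBP4 (0.77), an HSP90 cochaperone, and NRIP1 (0.46), a receptor corepressor. Falls numbered 4 without combination 1, and rises 1 without combination 1, combination 2 or vehicle 1 and 0 without combination 3 or vehicle 3. With estradiol alone PRLR, MYB and CA12 gave 0.19, 0.40 and 0.23, none past the threshold with or without the replicate block, and with CG-1521 alone −1.69, −1.61 and −1.45. Of 8 steroid receptor genes 1 fell and 1 rose, beside 6.76% and 6.62% of all genes. The mineralocorticoid receptor NR3C2 fell by 0.55 on the log2 scale and the glucocorticoid receptor NR3C1, whose ligand hydrocortisone was in the medium, rose by 0.41. Calls were lost for CELSR2 without combination 1, vehicle 2 or vehicle 3, NR3C2 without combination 1, combination 3, vehicle 1 or vehicle 2, and NR3C1 without combination 1, combination 2, vehicle 2 or vehicle 3.

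Genes induced by interferons and inflammatory cytokines rose in part. Of 24 interferon response genes 7 rose and 0 fell (median 0.47; 5 to 9 rises with 1 array left out). The median was 0.20 without combination 3, and 3 members rose when the dimmest 50% of genes, members among them, were not tested. IFIT2, an antiviral RNA-binding protein, read 3.95, 4.02 and 4.38 in vehicle and 7.15, 6.30 and 8.63 with the combination, a rise of 3.24 (SE 0.53, adjusted p = 0.00177). RSAD2 (viperin) went from 3.49, 3.72 and 3.63 to 5.81, 5.45 and 7.16 (2.53, SE 0.48) and IFI44 from 4.27, 4.56 and 4.22 to 6.81, 6.06 and 7.13 (2.32, SE 0.29). Combination 3 was the highest and combination 2 the lowest treated array in all of them. IFIT1, read at 4.62, 4.46 and 4.47 and 5.96, 5.34 and 8.29, showed the same order with a wider spread and did not pass (2.01, adjusted p = 0.0507). The transcription factor IRF1 rose by 1.41 (SE 0.20) and ISG20 by 1.21, while ISG15, MX1 and OAS1 gave 0.44, 0.16 and 0.24 and did not pass. NLRC5, the activator of class I presentation genes, rose by 0.67 (SE 0.16) as the 1 call among 9 antigen presentation genes, beside rises in 6.62% of all genes. NLRC5 no longer passed without combination 1, combination 3 or vehicle 3.

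The NF-kB and cytokine list, 19 genes of inflammation, had 7 rises and 0 falls (median 0.48; 5 to 7 rises with 1 array left out). CXCL8 (interleukin 8), a neutrophil attractant, read 6.57, 6.36 and 5.90 in vehicle and 8.35, 7.91 and 8.80 with the combination (2.08, SE 0.27, adjusted p = 0.00042). The chemokines CXCL2 and CCL20 gave 1.75 and 1.97, the subunit NFKB2 0.82 and IL6 0.96. IL1RN, the natural antagonist of interleukin 1, was among the largest rises of all, from 4.96, 5.32 and 4.82 to 8.60, 8.36 and 9.91 (3.92, SE 0.41, adjusted p = 0.000104). Of 12 leukocyte markers 2 rose, CD68 (2.00), which lysosomes of other cells also carry, and CSF1R (0.65). The mean level of that list was 4.81 to 4.97 on the vehicle arrays and 5.06 to 5.16 on the combination arrays, and PTPRC stayed near the bottom of the scale (2.82 ± 0.068, SD, n = 3); the part of leukocyte RNA in the cytokine rises was not tested. Leaving out 1 array ended the calls of CCL20 without combination 1, combination 3, vehicle 2 or vehicle 3, IL6 without combination 2, combination 3, vehicle 1, vehicle 2 or vehicle 3, and CSF1R without combination 1 or vehicle 1.

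Immediate early genes split. Of 15, 5 rose and 4 fell (median −0.058, and −0.0042 without combination 1, 0.04 without combination 2, −0.17 without combination 3, −0.091 without vehicle 1 and 0.21 without vehicle 3). With 1 array left out rises numbered 4 to 5, and falls 1 without combination 1. FOS, a subunit of the factor AP-1, read 10.90, 10.23 and 11.41 in vehicle and 8.66, 8.97 and 9.93 with the combination (−1.66, SE 0.36, adjusted p = 0.0096), and FOSB and EGR1 gave −1.24 and −0.97. ATF3 went from 6.46, 5.59 and 7.55 to 9.49, 8.44 and 9.46 (2.60), with vehicle 3 the highest vehicle array, and the phosphatase DUSP5 rose by 1.20. FOS and FOSB no longer passed without combination 1.

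Mitochondrial respiration genes fell by small amounts. Of 24 measured, 16 fell and 0 rose (median −0.45), led by the complex I subunit NDUFV1, from 9.12, 9.34 and 9.5 to 8.11, 8.59 and 8.32 (−0.98, SE 0.15). The ATP synthase subunit ATP5F1A gave −0.65 and the complex II subunit SDHA −0.59. The count of falls was 3 without combination 1; 5 without combination 3; 8 without vehicle 1; 10 without vehicle 3. Of 24 glycolysis and hypoxia genes 6 rose and 0 fell (median 0.023, with either sign when 1 array was left out), and the rises were 3 without combination 3. NDRG1, a stress protein also induced by low oxygen, ranged widely in vehicle, at 7.23, 8.13 and 9.60, and reached 10.74, 10.49 and 11.29 (2.52, SE 0.53). The peptide hormone ADM rose by 1.49, the glucose transporter SLC2A1 by 0.60 and the kinases HK2 and PFKP by 0.69 and 0.59. LDHA, the lactate dehydrogenase of glycolysis, gave −0.12 (adjusted p = 0.835). The respiratory subunit UQCRC1 and NDUFA2 gave −0.57 and −0.66. Short of the threshold with 1 array fewer were UQCRC1 without combination 1, combination 3 or vehicle 1, NDUFA2 without combination 1, HK2 without combination 3, vehicle 1 or vehicle 2, and PFKP without combination 1, combination 2, combination 3 or vehicle 3.

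The cytoskeletal genes MAP1B and MSN were among the 15 largest rises. MAP1B, a microtubule-associated protein of neurons, read 5.00, 4.56 and 5.14 in vehicle and 8.33, 7.71 and 7.66 with the combination (3, SE 0.28, adjusted p = 5.06e-05), and its relative MAP2 6.39, 5.95 and 5.72 and 9, 8.55 and 7.51 (2.34, SE 0.33). Both bind microtubules, the fibres that also form the spindle. Of 26 tubulin and microtubule genes 5 rose and 1 fell, beside 6.62% and 6.76% of all genes. The fall was the microtubule destabiliser STMN1 (−1.39), and tubulins TUBA4A and TUBB2A gave 1.11 and 0.67. Rises numbered 2 without combination 1 and 3 without combination 2, combination 3 or vehicle 2, and falls 0 without combination 1, combination 2, vehicle 1 or vehicle 2 and 4 without vehicle 3. MSN (moesin), which ties actin to the membrane, rose from 8.33, 7.93 and 7.26 to 10.71, 10.52 and 10.94 (2.88, SE 0.27). Of 15 junction genes 4 rose, the desmosomal cadherins DSC2 (1.12) and DSG2 (0.74), the claudin CLDN1 (1.09) and TJP1 (0.69), and TJP3 fell by 0.69 on the log2 scale; rises were 2 without combination 1 or vehicle 3. The test was no longer passed by STMN1 without combination 1, combination 2, vehicle 1 or vehicle 2, TUBA4A and DSG2 without combination 1, combination 2, combination 3 or vehicle 3, TUBB2A without combination 1 or vehicle 2, and CLDN1 without combination 1 or vehicle 3. Further large rises were BPIFC, a lipid-binding secreted protein, from 3.54, 3.42 and 3.50 to 9.23, 8.41 and 7.58 (4.92, SE 0.38, 30.3-fold), the channel protein CLIC2 (3.72) and the noncoding RNA LCAL1 (3.50).

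Few genes of histone-modifying enzymes passed. Of 18 deacetylase genes, a list that includes the NAD-dependent sirtuins, 2 rose, beside 6.62% of all genes, and 0 fell: HDAC9 went from 4.23, 4.09 and 4.18 to 5.48, 5.02 and 5.25 (1.08, SE 0.20), and SIRT7 gave 0.39. HDAC1 gave 0.28 (adjusted p = 0.52). None of 11 acetyltransferase genes passed, EP300 being at 0.35. Linker and polyadenylated histone genes had 3 falls among 14: H1-4 (−1.04), H2AZ1 (−0.95) and H2AC6 (−0.46). Of 22 genes that promote apoptosis CASP8 rose (0.81, SE 0.14) and APAF1 fell (−0.73, SE 0.20), near the 6.62% and 6.76% of all genes. None of 7 that oppose it passed. Histone falls numbered 0 without combination 1, vehicle 1 or vehicle 2; 1 without combination 2 or combination 3; 5 without vehicle 3. Deacetylase rises were 1 without combination 1, combination 2, combination 3, vehicle 1 or vehicle 2, and pro-apoptotic falls 0 without combination 1 or vehicle 1. Below the threshold with 1 array fewer were SIRT7 and H1-4 without combination 1, combination 2, combination 3, vehicle 1 or vehicle 2, H2AZ1 without combination 1, combination 3, vehicle 1 or vehicle 2, and H2AC6 and APAF1 without combination 1, combination 2, vehicle 1 or vehicle 2.

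Whether estradiol changed the response to CG-1521 was asked by setting the combination against CG-1521 alone. At an adjusted p under 0.05, 0 of 18417 genes differed (0%), and 889 did at an unadjusted p under 0.05 (4.83%). The replicate numbers paired these groups, and the count was also 0 with the replicate number as a block (1018 at an unadjusted p under 0.05). With all 24 arrays in one fit 7 genes passed. The median width of the 95% confidence interval on either side of the difference was 0.3 over all genes, and for 18118 genes (98.4%) the interval lay within 1 log2 unit of 0. Among the 2466 genes that the combination changed, 2387 intervals (96.8%) lay within 1 unit and 1613 (65.4%) within 0.5.

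For the leading genes the combination minus CG-1521 was small and its interval wide. HSPA6 differed by −0.035 (interval −1.24 to 1.17), with CG-1521 arrays at 10.55, 8.76 and 11.75. CRYAB differed by −0.022 (−1.07 to 1.03), HMOX1 by −0.12 (−0.79 to 0.54) and THRSP by −0.09 (−0.49 to 0.31). Over the 30 genes named by size the difference ran from −0.65 (SCGB1D2, interval −1.81 to 0.51) to 0.37 (CLCA2, interval −0.10 to 0.84), and 19 of the 30 intervals lay within 1 unit of 0. SCGB1D2 stood at 6.52, 6.58 and 7.79 with CG-1521 and 5.48, 5.82 and 7.64 with the combination, so the groups overlapped. Within each replicate number it was lower with the combination, and with the block it was the 1 gene of the 30 at an unadjusted p under 0.05 (−0.65, SE 0.20, unadjusted p = 0.00658, adjusted p = 0.826 in limma). These intervals do not show that estradiol had no effect on these genes.

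**Figure D4:**
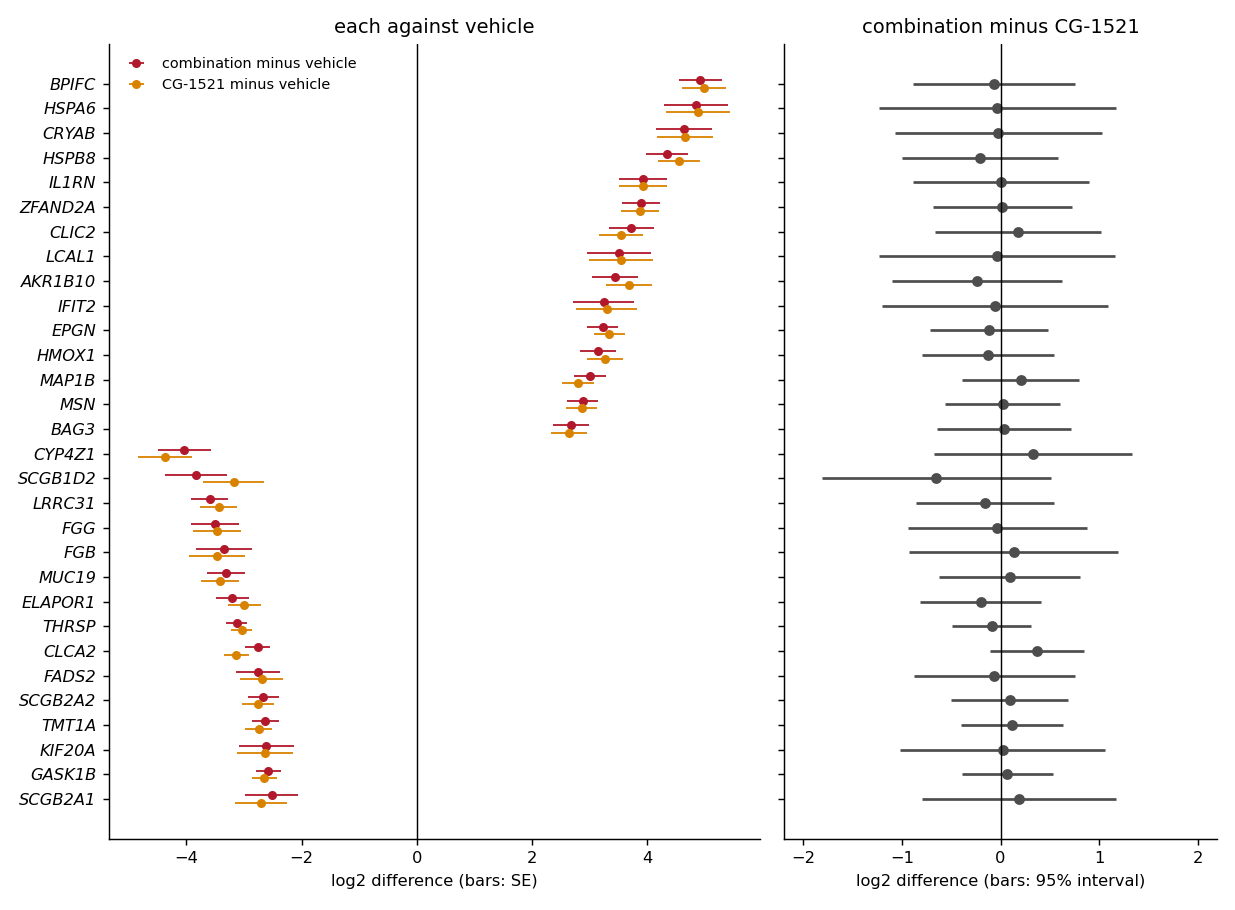
The 15 largest rises and 15 largest falls in SUM190PT: at left the log2 difference from vehicle with the combination and with CG-1521 alone, which share the vehicle arrays (bars, SE); at right the combination minus CG-1521 with its 95% confidence interval. All 30 intervals at right, from the fit without a replicate block, include 0.

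Set side by side against the vehicle arrays they share, CG-1521 alone changed 3053 genes (16.6%), the combination 2466 and estradiol alone 1 (0.00543%; 4531, or 24.6%, at an unadjusted p under 0.05). With the replicate number as a block estradiol alone changed 519 genes. Estradiol 3 and vehicle 3 deviated together (correlation 0.729), but the number did not tell the first 2 arrays of these groups apart. For the heat shock list the medians were 1.28 with CG-1521, 1.23 with the combination and 0.085 with estradiol. The cholesterol list had −0.95, −0.93 and 0.076, the luminal list −0.33, −0.20 and 0.067, and the G2/M list −1.35, −1.48 and 0.14. HSPA6 read 5.45, 5.38 and 5.06 on the estradiol arrays, within the vehicle range or below it. SCGB2A2, at 12.02, 12.14 and 12.47 with estradiol, gave 0.73 (adjusted p = 0.134), and with the combination it was low as with CG-1521 (8.24, 9.01 and 8.93). The interaction, which asks whether the 2 agents together departed from the sum of their separate effects, had 95 genes past the threshold (0.516%) and 0 with the replicate number as a block. With 1 array left out that count was 0 to 4, except for 1655 without vehicle 1, and it was 1 without vehicle 3 and estradiol 3 together. None of the 30 genes named by size passed it; SCGB1D2 gave −0.94 (adjusted p = 0.492) and AKR1B10 −0.88 (adjusted p = 0.377).

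The change in SUM190PT was tested against that in SUM149PT, a line of basal character, in which CG-1521 was given at 7.5 µM in serum, so that line, dose and medium cannot be told apart. The change differed in 3310 genes (18%), 1950 higher (10.6%) and 1360 lower (7.38%) in SUM190PT. In SUM149PT itself 6848 genes changed (37.2%), 2990 upward (16.2%) and 3858 downward (20.9%). Heat shock and sterol genes differed, and most division genes did not pass. Of 23 heat shock genes 21 had a higher change in SUM190PT and 0 a lower one; in SUM149PT 3 rose and 12 fell. CRYAB read 3.81, 3.61 and 3.71 in SUM149PT vehicle and 3.67, 3.88 and 3.61 with the combination there (0.0078), so that the difference between the lines was 4.62 (SE 0.53, adjusted p = 2.66e-06). HSPB1 (HSP27) gave 1.56 in SUM190PT and −0.77 in SUM149PT, both past the threshold. ZFAND2A rose in both lines, by 3.89 and 1.49.

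Of 17 cholesterol genes 16 had a lower change in SUM190PT, and in SUM149PT 13 rose and 1 fell (median 0.76). SQLE gave −1.36 in SUM190PT and 1.12 in SUM149PT, a difference of −2.48 (SE 0.28, adjusted p = 1.78e-06), and MSMO1, a sterol demethylating oxidase, −0.93 and 2.31. FADS2 likewise gave −2.75 and 0.60. The spindle list had 31 falls of 31 in SUM149PT, and 0 of them differed between the lines, as was so for the G2/M list (21 falls of 21 and 0 differences). The spindle median was −1.47 in SUM190PT, −2.08 there without vehicle 3, and −1.88 in SUM149PT. For the G2/M list these medians were −1.48, −1.91 and −1.75. A lack of calls does not show that the falls were equal in the 2 lines. Of 20 cytokinesis genes 2 had a higher and 1 a lower change in SUM190PT: the cytoskeletal GTPase RHOA (0.54) and the septins SEPTIN7 (0.86) and SEPTIN9 (−0.35). TOP2A gave −2.35 and −1.91, with a difference of −0.44 (SE 0.44, adjusted p = 0.539). CDKN1A rose by 1.26 and 1.47 (difference −0.21, adjusted p = 0.534), AKR1B10 by 3.44 and 3.76, and CXCL8 by 2.08 and 2.18. The secretoglobins and fibrinogens were low in SUM149PT vehicle (SCGB1D2 4.54 ± 0.22, FGG 3.24 ± 0.25, SD, n = 3). IFIT2 rose in SUM190PT and gave −0.039 in SUM149PT (difference 3.28, SE 0.58).

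**Figure D5:**
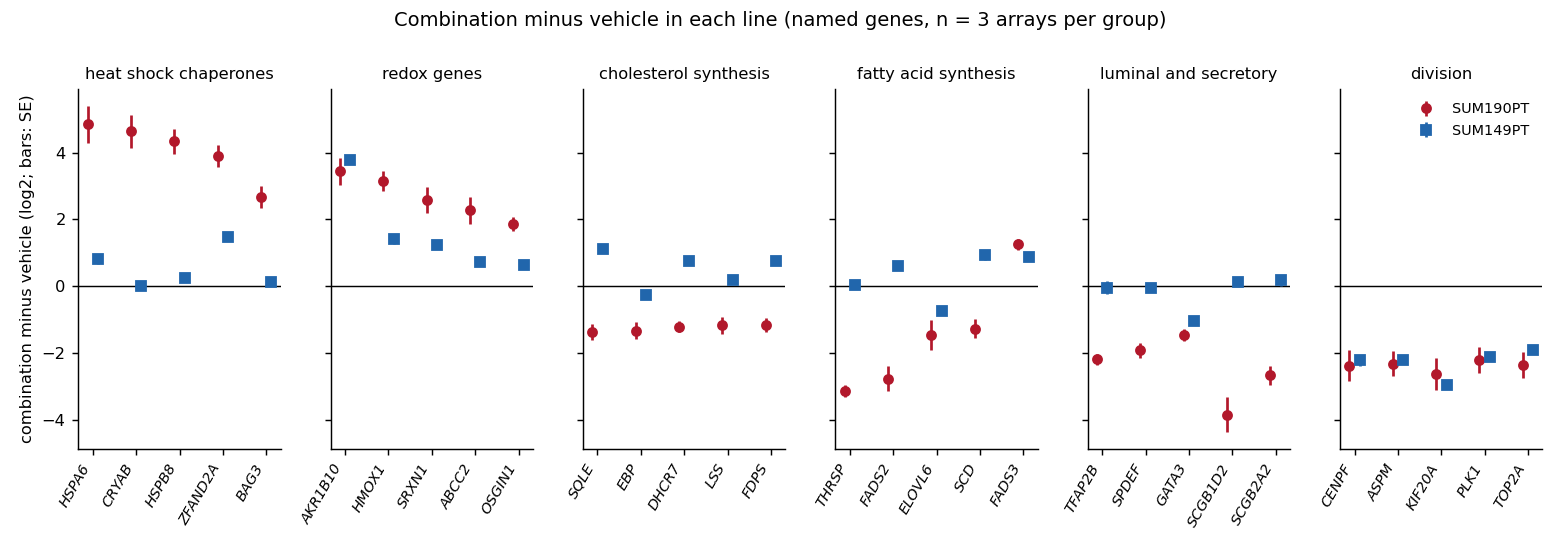
Combination minus vehicle (log2, bars SE) for 30 named genes in SUM190PT (circles) and SUM149PT (squares), by group. Heat shock and cholesterol genes lie apart in the lines, and the division genes lie together near −2; TOP2A is at −2.35 and −1.91.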

How the data were processed

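RNA of SUM190PT and SUM149PT cells was amplified with a kit for small inputs and hybridised to Affymetrix gene arrays, 24 arrays in 8 groups of 3, per the labels' protocols. The deposited values are log2 intensities made by RMA (background correction, quantile normalization and summary of each probe set) in Affymetrix Expression Console, per the submitters' processing notes. A joint or separate normalization of the lines is not given in the sources used here. The number of arrays limits the precision. Of 33297 probe sets 19460 had 1 gene symbol in the platform annotation, 1754 several and 12083 none. The probe set with the highest mean stood for each of 18417 genes.

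The 12 SUM190PT arrays were fitted together in limma 3.58.1 (R 4.3.3, statmod 1.5.0), and all 24 for the difference between lines, with two-sided moderated tests adjusted by Benjamini-Hochberg over all genes and called under 0.05. Adjusted p-values come from these limma fits unless a replicate block is named. The fit was also run on simulated arrays with known changes. Their noise was independent between genes, so the simulation did not cover deviations shared by many genes, as on vehicle 3. Tables and figures used Python 3.11.15, pandas 2.3.3, numpy 2.4.6 and matplotlib 3.10.9. Promoters are RefSeq sequences of GRCh38.p14.

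The comparison, its members and the 42 gene lists were chosen with earlier results of these data known. Named were the 15 largest rises and 15 largest falls with groups that did not overlap, 6 and 6 for the interaction and the line difference, up to 5 called members of each list by size or 2 by p, and a fixed set of receptors and regulators. Genes named beyond this rule, mostly list members that did not pass, were chosen after their values were seen. No set test was run.

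Same-numbered combination and vehicle arrays did not deviate together (correlations of deviations −0.125, −0.0593 and 0.0581), whereas same-numbered combination and CG-1521 arrays did (0.518, 0.434 and 0.502). The number was therefore taken to pair combination and CG-1521 arrays, from the data. Same-numbered estradiol and vehicle arrays gave 0.443, 0.229 and 0.729. Estradiol 2 went more with vehicle 1 (0.447) than with vehicle 2, and estradiol 1 gave 0.278 with vehicle 2. The numbers thus matched the third arrays of these groups and did not tell the first 2 apart. The block for estradiol and for CG-1521 alone was added after seeing the data. Alternatives were a replicate block, other sets of arrays, leaving out each array, other normalization, a filter on dim genes, the mean of probe sets and array weights.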

Additional observations from a re-analysis of the deposited data

Results flagged for a closer look

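The interaction between estradiol and CG-1521 in SUM190PT passed the threshold in 95 genes, that is, the estradiol effect with CG-1521 differed from that without it. None had an adjusted p under 0.05 with the replicate number as a block. Higher than the sum of the single effects were KRTAP10-1 (1.54), KRTAP10-4 (1.29), CHST14 (1.45), CFAP77 (1.23), TGFB1I1 (1.23) and KBTBD11 (1.19). KRTAP10-1 and KRTAP10-4 are keratin-associated proteins of hair and close copies of each other, and CHST14 is a sulfotransferase of dermatan sulfate. Lower were TAS2R19, a taste receptor (−1.54), METTL15 (−1.34), the ribosomal protein gene RPL22 (−1.25), ZNF429 (−1.24), ABHD18 (−1.13) and KRCC1 (−1.10). RPL22 read 6.04, 6.03 and 5.95 in vehicle, 6.82, 6.78 and 7.04 with estradiol, 6.08, 6.01 and 5.97 with CG-1521 and 5.24, 5.80 and 5.90 with the combination. These values stand beside the arrays vehicle 3 and estradiol 3, which lie apart from their groups, and their part in the interaction was not tested beyond the count of 1 gene without both.

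The response to the combination differed between SUM190PT and SUM149PT in 3310 genes by the fit over 24 arrays. The largest differences upward were CRYAB (4.62), HSPB8 (4.09), HSPA6 (4.04), BPIFC (3.99), the skin caspase CASP14 (3.94) and the growth factor TGFB2 (3.86). CASP14 gave 0.83 in SUM190PT and −3.11 in SUM149PT, and TGFB2 0.98 and −2.89. The largest downward were CYP4Z1 (−4.13), SCGB1D2 (−3.96), FGG (−3.77), LRRC31 (−3.70), ELAPOR1 (−3.59) and AGR2 (−3.58). AGR2, a secretory protein of luminal cells, read 11.71, 11.38 and 11.31 in SUM190PT vehicle and 11.66, 11.71 and 11.53 with the combination (0.17, adjusted p = 0.568 in limma), whereas in SUM149PT it went from 4.56, 4.42 and 4.31 to 8.11, 8.04 and 8.38 (3.75).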

How the results depend on the processing

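With 1 array left out, the combination changed 1252 to 2248 genes against vehicle (2466 with all arrays), the interaction 0 to 1655 (95 with all arrays) and combination minus CG-1521 0 throughout. One fit over all 24 arrays gave 4242 calls against vehicle, 7 for combination minus CG-1521 and 2540 for the interaction. Without vehicle 3 and estradiol 3 combination minus CG-1521 had 1 call and the interaction 1. The interaction had 3 calls after quantile normalization, 10 with arrays centred on their medians, 1 without the dimmest 50% of genes and 1814 with array weights, and the cause of these moves was not tested. With the replicate number as a block, 3211 genes passed against vehicle, although same-numbered arrays of these groups did not deviate together, the interaction had 0, CG-1521 alone 3901 (3053 without it) and estradiol alone 519 (1 without it). For CG-1521 and for estradiol against vehicle the numbers did not pair the arrays throughout. The difference between lines stayed within 1.5 times its 3310 under every alternative run. Centring the arrays moved the median gene of the interaction by −0.11. Of 42 list medians 12 had the other sign under at least 1 alternative, and their values with all arrays were at most 0.16 in size. The same held for 8 of 189 named genes against vehicle, none of them called. Of 157 called genes among those named, 109 stayed called with each of the 6 arrays left out in turn. Over all alternatives, 2151 of 2328 pairs of these genes and an alternative kept their side of the threshold. The named genes were picked largely by size, so these shares do not stand for all calls. Of all 2466 calls, 1237 (50.2%) were kept without combination 1 and 1549 (62.8%) without vehicle 2. For the interaction a fit of only the groups compared equals the fit over the 12 SUM190PT arrays and was not run apart, and for the lines all 24 arrays were the fit itself. With 3 arrays per group, for 11 of the 30 largest changes the interval still allows the combination to differ from CG-1521 by over 1 log2 unit in at least 1 direction.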

Other observations

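The groups outside the account above had shares of calls to be read beside the 6.62% of all genes that rose and the 6.76% that fell, and nothing is drawn from them. Of 23 neuronal genes 3 rose and 0 fell (median 0.076): STX1A, which drives release at synapses, gave 1.14, the ubiquitin hydrolase UCHL1 1.02 and the neurofilament gene NEFM 0.49. NEFM no longer passed without combination 1, combination 3, vehicle 2 or vehicle 3. Of 18 germline genes the meiosis gene SYCP2 fell by 1.22 on the log2 scale (adjusted p = 0.00254 in limma), with a list median of 0.013. Metallothioneins, which bind zinc and copper, had 0 rises and 0 falls among 9 (median 0.095). Of 20 ribosomal protein genes RPS2 was the 1 call (−0.30, adjusted p = 0.0462), and RPS2 no longer passed with any 1 of the 6 arrays left out. Of 14 mesenchymal genes S100A4, a calcium-binding protein, was the 1 call (−0.75, adjusted p = 0.00695). Fibroblast and endothelial markers had 0 calls, with medians of 0.067 and −0.0035.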
